A study of Mus musculus with 50 samples.

Results

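Polysomal RNA of mp53 cells, young adult mouse colon (YAMC) cells that carry a mutant p53, was set against that of bleo/Neo cells, which carry empty vectors, with 10 arrays each. These are 20 of the 50 arrays of the series and were taken by title, mp53 without Ras against bleo/Neo. Every gene named by the platform annotation was followed. YAMC cells are an epithelial line from the colon of a transgenic mouse, H-2Kb/tsA58, in which an interferon γ-inducible promoter drives a temperature-sensitive simian virus 40 large T antigen. All populations therefore share the large T transgene. The mp53 population received retroviruses for p53175H and for the Neo vector, while the bleo/Neo population received the bleo and Neo vectors and no oncogene. Both were polyclonal, and the labels describe a single infected population of each kind, so the effect of the mutant and the history of the population cannot be told apart. The 10 arrays of uninfected YAMC cells, the parents of both populations, are used as a side comparison, and the 10 arrays of Ras cells (bleo vector and RasV12) only where an array is placed among the groups. Cells were expanded at 33 °C with interferon γ. All were then held for 48 h at 39 °C without interferon γ, the condition that inactivates large T, and for a further 24 h in medium with 0% serum.

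p53 is a transcription factor that responds to DNA damage and other stress by inducing genes for cell cycle arrest, DNA repair, metabolism and cell death. The substitution carried here lies in its DNA-binding domain and is among the changes found often in human colon tumours. Such mutant proteins lose normal binding to target genes, and can bind the normal protein and inhibit it. Large T antigen also binds p53, as well as the retinoblastoma protein, and is used to keep these cells dividing in culture.

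RNA was taken from pooled polysome fractions, the part of the cell lysate where messengers carry several ribosomes, and hybridised to mouse genome arrays with 5 µg of RNA for each array. A level here is the log2 of a probe set's intensity, and a difference is the mp53 mean minus the bleo/Neo mean on that scale, so 1 unit is 2-fold. A level reflects the abundance of a messenger and its loading with ribosomes together, and these cannot be told apart. Replicate numbers are not stated to be separate cultures, so p values measure only the spread between these samples. In the deposited table the 50 arrays share almost the same distribution of values, from 3.04 to 14.26 with a median of 6.44 and a 25th percentile of 5.17. No arrays were identical. Group means below the 25th percentile are called near the floor of the table, and a difference from such a mean may be understated. Among genes named for a difference this holds in mp53 cells for Akr1c14, Col4a3, Fgf13, Hook1, Rai2 and Shtn1. It holds in bleo/Neo cells for Plagl1, Rps4l, Slc2a3, Nid1, Prkar2b, Il6, H2-Q5, Zic1, Zfp979 and the Y-linked genes. The inserted gene was not analysed here, so it gives no check of the labels.

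Of the 10 mp53 arrays, 2 stood apart from the group. The distance of an array from a group, here the root mean square of its differences from that group's mean over all tested genes, was 0.497 to the mp53 mean for array 8 and 0.362 to the YAMC mean, its nearest group. From the YAMC mean the other mp53 arrays lay 0.343 to 0.427, so array 8 was not set apart from them by its distance to YAMC cells. Array 10 lay 0.418 from the mp53 mean and 0.266 from the mean of the Ras cells, from which the other mp53 arrays lay 0.424 to 0.585. The labels do not say whether the RNA or the arrays of these 2 samples were mixed up with others, and this was not tested. Array 5 was the next farthest, at 0.373 from the mp53 mean, which was still its nearest group, and the other 7 lay between 0.156 and 0.226. Each bleo/Neo array was nearest to its own group. Every result was therefore also computed without arrays 8 and 10, and the second value is given where it ends a call or moves a called difference by over 1.5 times, and for the genes those arrays move most. On the 414 genes called and at least 2-fold different, array 8 showed a median of 105% of the difference of the other mp53 arrays for the higher genes and 62.5% for the lower genes. Array 10 showed 87.4% and 78.9%. The other 8 arrays ran from 96.5% to 109% for the higher genes and from 103% to 113% for the lower ones.

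**Figure D1:**
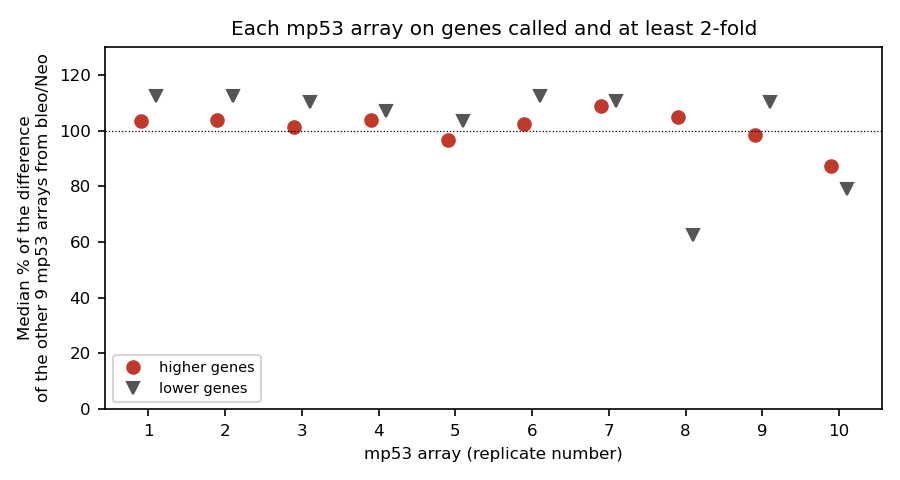
For each mp53 array (x axis, replicate number), the median over genes of its difference from the bleo/Neo mean, in percent of the difference of the other 9 mp53 arrays (y axis). Red circles are the genes called higher and at least 2-fold, grey triangles the genes called lower and at least 2-fold. Array 8 falls to 62.5% on the lower genes alone, and array 10 to 87.4% on the higher and 78.9% on the lower genes.

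The labelled cell type was checked against marker genes. Of 19 markers of colon epithelium on the array, 5 had means above the table median in both groups (Epcam, Krt8, Krt18, Krt19 and Tff3), and 12 lay below it in both. Epcam, an epithelial adhesion molecule, averaged 8.34 in mp53 cells and 8.07 in bleo/Neo cells, and Krt8, a simple epithelial keratin, 12.36 and 12.26. The other bright probe set of Epcam averaged 6.35 in mp53 cells and 6.41 in bleo/Neo cells, just below the table median. Cdh1, the epithelial cadherin, was near the floor at 4.01 and 4.15, and so were Cdx1, Cdh17 and Fabp2, which mark differentiated intestine. Among fibroblast markers 8 of 12 were above the median in both groups, with Vim at 13.64 in mp53 cells and 13.48 in bleo/Neo cells, whereas Thy1, Lum and Fap were not. Of 9 endothelial markers 3 (Kdr, Tek and Esam) and of 10 immune markers 4 (Cd68, Csf1r, Cd3e and Lyz2) were above the median in both groups, whereas the endothelial Pecam1 and Cdh5 and the leukocyte marker Ptprc lay below it in both. Keratins of simple epithelium and mesenchymal matrix genes were thus measured together in both populations, and the defining genes of mature colon epithelium were low in both.

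Of the 12883 genes tested with limma, 2123 (16.5%) were called higher in mp53 cells and 2439 (18.9%) lower at a Benjamini-Hochberg adjusted p under 0.05. Called and at least 2-fold were 215 higher (1.67%) and 199 lower genes (1.54%). Most called differences were small: the median size was 0.37, and 418 higher and 552 lower genes differed by under 0.25. At the other end 7 genes were higher and 2 lower by 4 or more. All 10 mp53 arrays lay above all 10 bleo/Neo arrays for 319 genes (2.48%) and below them for 263 (2.04%). Without arrays 8 and 10 the calls were 2202 higher (17.1%) and 2564 lower (19.9%), of which 232 (1.8%) and 229 (1.78%) were at least 2-fold, and the arrays did not overlap for 540 higher (4.19%) and 626 lower genes (4.86%). Of the calls, 4103 were made in the same direction both ways, 459 with all arrays alone, 663 without the 2 arrays alone, and none in opposite directions. Against the parental YAMC cells 1433 genes (11.1%) were higher in mp53 cells and 1519 (11.8%) lower. For bleo/Neo cells against the same YAMC arrays the counts were 2576 (20%) higher and 2237 (17.4%) lower. The 2 comparisons use the same YAMC arrays, so their values are given side by side for each gene, as mp53 minus YAMC and bleo/Neo minus YAMC.

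Genes with the largest rises included an imprinted transcription factor, contractile proteins and matrix proteins. Plagl1, an imprinted zinc finger transcription factor that restrains growth, ranged from 7.45 to 11.94 (median 11.52) in mp53 cells against 4.56 to 5.67 (median 4.87) in bleo/Neo cells, a difference of 6.05 ± 0.39 (limma adjusted p 3.2e-18) from a bleo/Neo mean near the floor. Its lowest mp53 array was array 10, and 6.57 was the difference without arrays 8 and 10. Another bright probe set of Plagl1 differed by only 0.05, so the rise was seen by 1 of 2 probe sets. Myl9, a regulatory light chain of smooth muscle myosin, ranged from 9.91 to 13.001 (median 12.71) in mp53 cells against 6.18 to 7.43 (median 6.58) in bleo/Neo cells, a difference of 5.63 ± 0.28, and 5.98 without arrays 8 and 10. Col1a2, the second chain of type I collagen, measured 11.87 to 13.61 (median 13.08) in mp53 cells and 8.27 to 9.29 (median 8.59) in bleo/Neo cells, a difference of 4.37 ± 0.14. No mp53 array overlapped a bleo/Neo array for any of the 3 genes. Set against YAMC cells, Myl9 differed by 0.15 in mp53 cells and by -5.47 in bleo/Neo cells, Col1a2 by -0.24 and -4.62, and Plagl1 by 1.47 and -4.58. The level of mp53 cells was thus within 0.25 of the parental level for Myl9 and Col1a2, and bleo/Neo cells were far below it.

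Bgn, the small proteoglycan biglycan, measured 12.36 to 12.97 (median 12.54) in mp53 cells and 8.03 to 9.34 (median 8.59) in bleo/Neo cells, and all 3 of its bright probe sets differed by 3.93 to 4.32. Col8a1, a short-chain collagen, measured 8.82 to 10.70 (median 10.07) in mp53 cells and 5.99 to 6.71 (median 6.28) in bleo/Neo cells, with a difference of 3.77 ± 0.20. Actg2, the enteric smooth muscle actin, ranged from 7.59 to 11.33 (median 10.69) in mp53 cells against 5.88 to 6.78 (median 6.22) in bleo/Neo cells, a difference of 4.005 ± 0.32, and 4.43 without arrays 8 and 10. For Actg2 the lowest mp53 value was again array 10, and the groups did not overlap for Bgn, Col8a1 or Actg2. Rasgrp3, an exchange factor that activates Ras and Rap proteins, rose by 3.87 ± 0.27, and Mgll, the lipase that cleaves monoglycerides, by 3.42 ± 0.18. Plac8, a small cysteine-rich protein, rose by 3.90 ± 0.23, and Csgalnact1, which starts chondroitin chains, by 3.42 ± 0.10, with 0.97 at its other bright probe set. Zic1, a zinc finger factor of the developing nervous system, measured 6.90 to 9.20 (median 7.70) in mp53 cells and 3.43 to 4.10 (median 3.63) in bleo/Neo cells, a difference of 4.11 ± 0.20. Zic1 was near the floor in bleo/Neo cells, and stood at -1.05 from YAMC cells in mp53 cells and -5.16 in bleo/Neo cells. Hoxa11, a posterior homeobox gene, rose by 3.32 ± 0.13. Rps4l, a gene related to the ribosomal protein gene Rps4x, ranged from 9.66 to 10.78 (median 10.30) in mp53 cells against 4.01 to 5.07 (median 4.41) in bleo/Neo cells, a difference of 5.80 ± 0.13 from a bleo/Neo mean near the floor. Probes of such close relatives can share signal, so Rps4l and the H2 genes are uncertain as single genes.

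The largest fall was that of Kcnk1, a potassium channel of the tandem-pore family. Kcnk1 ranged from 5.05 to 8.15 (median 5.29) in mp53 cells against 10.28 to 11.03 (median 10.86) in bleo/Neo cells, a difference of -5.22 ± 0.20 (limma adjusted p 1.8e-27). Array 8 gave its highest mp53 value and the next highest was far lower, yet no mp53 array reached the bleo/Neo range. Gpm6a, a membrane glycoprotein of neurons and some epithelia, measured 6.47 to 8.73 (median 7.88) in mp53 cells and 11.70 to 12.39 (median 12.19) in bleo/Neo cells, a difference of -4.34 ± 0.21. Perp, a p53 target that sits in desmosomes and takes part in cell death, ranged from 8.17 to 11.30 (median 8.48) in mp53 cells against 11.73 to 12.87 (median 12.43) in bleo/Neo cells, a difference of -3.44 ± 0.30. The 2 highest mp53 values of Perp were arrays 8 and 10, at 11.30 and 10.96, and -3.98 was the difference without them. Against YAMC cells, Perp differed by -2.03 in mp53 cells and 1.41 in bleo/Neo cells, Kcnk1 by -1.63 and 3.59, and Gpm6a by 0.82 and 5.16. Perp and Kcnk1 therefore stood below the parents in mp53 cells and above them in bleo/Neo cells, while Gpm6a was above the parents in both, far more so in bleo/Neo cells.

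Krt19, a simple epithelial keratin, measured 7.75 to 10.17 (median 8.12) in mp53 cells and 11.32 to 11.95 (median 11.48) in bleo/Neo cells, a difference of -3.10 ± 0.24. Krt7, another keratin of simple and glandular epithelium, changed by -2.70 ± 0.17, and Cldn15, a claudin that forms sodium channels between gut epithelial cells, by -2.65 ± 0.12. Ckmt1, the mitochondrial creatine kinase, ranged from 6.37 to 8.11 (median 6.80) in mp53 cells against 8.79 to 11.32 (median 9.94) in bleo/Neo cells, a difference of -3.01 ± 0.20. Gnai1, an inhibitory G protein subunit, changed by -2.75 ± 0.22, Hook1, which links vesicles to microtubules, by -3.07 ± 0.16, and Esam, a tight junction adhesion molecule, by -2.62 ± 0.09. The aldo-keto reductases Akr1c14 and Akr1e1 changed by -2.86 ± 0.17 and -2.09 ± 0.15, and Aldh1l1, which oxidises formyl-tetrahydrofolate, by -2.34 ± 0.14. Stmn4, a tubulin-binding stathmin, changed by -2.85 ± 0.11, Elovl7, a fatty acid elongase, by -2.37 ± 0.14, Cysltr1, the leukotriene receptor, by -2.33 ± 0.14 and Kcnq5, a voltage-gated potassium channel, by -2.16 ± 0.16. In each of these genes all mp53 arrays lay below all bleo/Neo arrays, and the largest limma adjusted p among them was 5.0e-15.

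**Figure D2:**
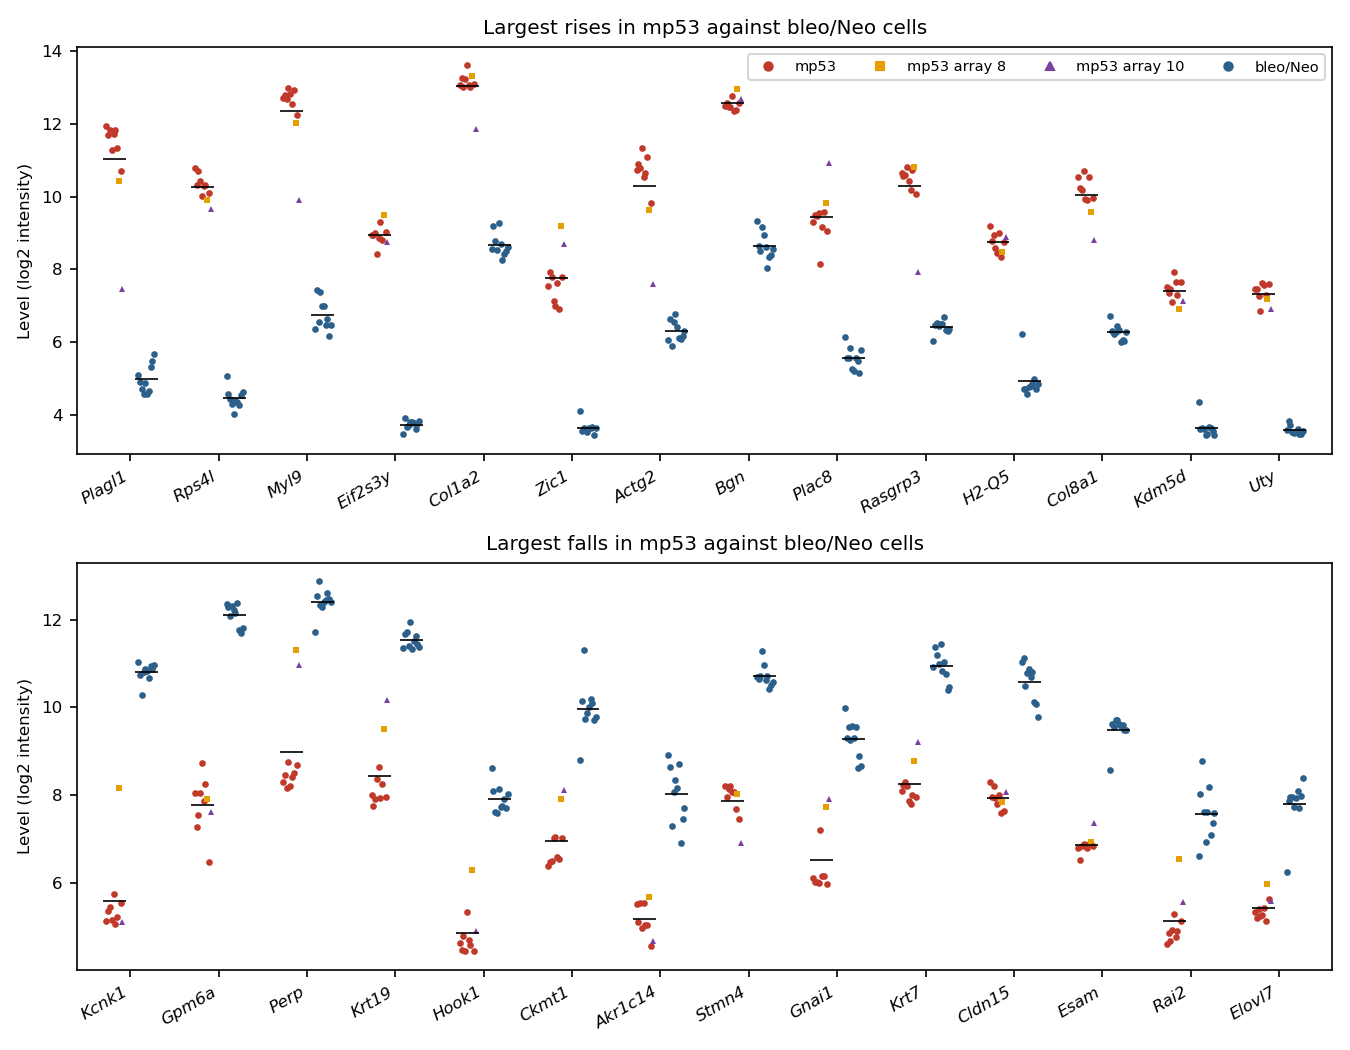
Log2 level on every array for the 14 largest rises (upper panel) and the 14 largest falls (lower panel) among called genes whose groups do not overlap. Red points are mp53 arrays, with array 8 as an orange square and array 10 as a purple triangle, blue points are bleo/Neo arrays, and black lines are group means. Array 10 is the lowest mp53 array for Plagl1, Myl9, Actg2 and Rasgrp3, and array 8 the highest for Kcnk1 and Perp.

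Smooth muscle contractile genes were mostly higher. Of 17 tested, 11 were called higher and none lower, against 16.5% higher and 18.9% lower over all genes, and their median difference was 0.54 against -0.02 for all genes. Arrays 8 and 10 left out, the count was 12 higher. Besides Myl9 and Actg2, Mylk, the myosin light chain kinase, measured 7.19 to 9.33 (median 8.27) in mp53 cells and 5.70 to 6.04 (median 5.92) in bleo/Neo cells, a difference of 2.23 ± 0.21. Cnn1, the smooth muscle calponin, ranged from 5.85 to 8.05 (median 7.31) in mp53 cells against 6.002 to 6.40 (median 6.17) in bleo/Neo cells, a difference of 1.07 ± 0.21. The groups overlapped for Cnn1 and did not for Mylk. The smooth muscle actin Acta2 and the tropomyosin Tpm2 rose by 0.76 ± 0.08 and 0.86 ± 0.08, and Tagln, the actin-binding protein transgelin, by 0.56 ± 0.13. Srf, the transcription factor of contractile genes, and its coactivator Mrtfa rose by 0.42 ± 0.09 and 0.70 ± 0.11. Against YAMC cells 2 of the 17 were higher and 4 lower in mp53 cells, while none was higher and 12 were lower in bleo/Neo cells. Cnn1 illustrates the order of the groups, with -0.996 in mp53 cells and -2.07 in bleo/Neo cells relative to the parents.

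Srf binds a sequence called the CArG box, so promoters of the contractile genes are shown where they hold it, with the box in capitals. RefSeq windows of 300 bases around the start (GRCm38.p6) were available for 16 of the 20 listed genes, 21 windows in all, and 3 held a match on either strand, those of Myl9, Cnn2 and Srf itself. Over all genes 535 of 32851 windows (1.63%) held a match, which is a description of letters and not of binding. Relative to the start the first match began at -161 for Myl9 (chr2:156775214-156775513, plus strand), at -56 for Cnn2 (chr10:79988350-79988649, plus strand), and at -82 for Srf (chr17:46556113-46556412, minus strand, 2 matches).
Myl9: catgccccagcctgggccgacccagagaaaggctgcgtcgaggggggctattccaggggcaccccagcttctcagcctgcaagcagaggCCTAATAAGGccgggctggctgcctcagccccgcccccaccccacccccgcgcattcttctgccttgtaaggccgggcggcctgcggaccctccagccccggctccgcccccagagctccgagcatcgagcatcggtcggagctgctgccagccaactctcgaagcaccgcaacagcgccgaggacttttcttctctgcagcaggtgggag
Cnn2: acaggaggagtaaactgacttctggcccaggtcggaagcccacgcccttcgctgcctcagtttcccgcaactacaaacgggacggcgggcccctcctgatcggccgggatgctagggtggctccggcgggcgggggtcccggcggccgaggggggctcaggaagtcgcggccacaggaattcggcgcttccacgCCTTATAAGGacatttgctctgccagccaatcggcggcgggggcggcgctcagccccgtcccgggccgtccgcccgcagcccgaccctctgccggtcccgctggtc
Srf: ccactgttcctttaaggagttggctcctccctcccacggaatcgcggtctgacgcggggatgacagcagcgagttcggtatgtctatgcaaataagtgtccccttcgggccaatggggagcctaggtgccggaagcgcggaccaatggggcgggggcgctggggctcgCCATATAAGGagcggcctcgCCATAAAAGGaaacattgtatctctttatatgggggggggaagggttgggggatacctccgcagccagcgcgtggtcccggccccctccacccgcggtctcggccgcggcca
Myl9 was the most changed of the list at 5.63 ± 0.28, whereas Cnn2, a calponin of many cell types, differed by 0.54 ± 0.06 and Srf by 0.42 ± 0.09. Actg2, Cnn1 and Mylk, the next largest rises, were not among those with a match in these windows.

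Matrix genes were called in both directions, with more higher than lower. Of 17 collagen chains other than type IV, 8 were called higher and 3 lower, against 16.5% and 18.9% over all genes. Col1a1, the partner chain of Col1a2 in type I collagen, ranged from 12.15 to 13.93 (median 13.30) in mp53 cells against 11.65 to 13.36 (median 12.30) in bleo/Neo cells, a difference of 0.74 ± 0.20. These groups overlapped, unlike those of Col1a2, and Col1a2 in bleo/Neo cells stood at -4.62 from the parents against -0.80 for Col1a1. The type VI chains Col6a1 and Col6a2 rose by 0.76 ± 0.14 and 0.73 ± 0.16, and Col16a1 and Col5a3 changed by -0.71 ± 0.11 and -0.66 ± 0.10. Summed over the 12 fibroblast markers, which include both type I chains, the linear intensity ran from 35085 to 64865 in mp53 cells and from 30772 to 46883 in bleo/Neo cells. These sums overlapped. Of the 8 markers tested, 3 were called higher and 1 lower, and 5 higher without array 10, and the type I chains and Dcn belong to both the marker and the matrix lists. What part fibroblast-like cells have in the matrix genes was not tested.

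Among 16 basement membrane genes 5 rose and 3 fell, against 16.5% and 18.9% over all genes, and the members divided by chain. Nid1, nidogen, which joins laminin to type IV collagen, measured 6.76 to 9.72 (median 7.69) in mp53 cells and 4.73 to 5.27 (median 4.97) in bleo/Neo cells, a difference of 2.74 ± 0.22 from a bleo/Neo mean near the floor. Its other bright probe set differed by 0.01, so the rise was seen by 1 of 2 probe sets. Its relative Nid2 rose by 1.39 ± 0.19. The widespread type IV chains Col4a1 and Col4a2 rose by 0.56 ± 0.15 and 0.78 ± 0.18. Col4a4, a chain of specialised basement membranes, ranged from 5.23 to 8.04 (median 6.65) in mp53 cells against 7.35 to 10.65 (median 8.93) in bleo/Neo cells, a difference of -2.32 ± 0.30, and the related Col4a3 and Col4a6 changed by -1.70 ± 0.17 and -1.94 ± 0.15. The Col4a4 groups overlapped. Nid1 stood below the parents in both populations, at -1.21 in mp53 cells and -3.95 in bleo/Neo cells.

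Matrix glycoproteins and proteoglycans had 12 of 23 members called higher and 3 lower, against 16.5% and 18.9% over all genes. Their median difference was 0.68. Beside Bgn, Ltbp1, which stores latent TGF-beta in the matrix, measured 7.65 to 8.71 (median 8.19) in mp53 cells and 5.26 to 5.75 (median 5.55) in bleo/Neo cells, a difference of 2.67 ± 0.11. The Ltbp1 groups did not overlap. Matn2, matrilin, rose by 2.22 ± 0.23 with 0.34 at its other bright probe set. The matricellular proteins Thbs1, Tnc and Postn rose by 1.31 ± 0.24, 1.16 ± 0.24 and 1.06 ± 0.14. Dcn, decorin, a relative of Bgn, went the other way: it ranged from 10.46 to 12.67 (median 12.23) in mp53 cells against 12.19 to 13.30 (median 13.04) in bleo/Neo cells, a difference of -0.88 ± 0.19. The Dcn groups overlapped, and the difference was -0.57 without arrays 8 and 10. Both stood above the parents, by 0.56 in mp53 cells and 1.44 in bleo/Neo cells. Vcan, versican, fell by 1.04 ± 0.33.

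Collagen-processing enzymes had 4 of 16 members higher and 1 lower, against 16.5% and 18.9% over all genes. Among the rises were Plod1, a lysyl hydroxylase (0.76 ± 0.12), and P4ha1, a prolyl hydroxylase (0.56 ± 0.17). The other bright probe set of Plod1 was called the opposite way, at -0.49, and neither gene was called with its probe sets averaged. P4ha1 was also not called with array weights (limma adjusted p 0.058). Those counts were 7 higher and 2 lower without array 10, and 3 lower without array 8. Of 20 proteases and inhibitors 7 were called higher and 3 lower. Mmp2, gelatinase A, ranged from 11.18 to 12.09 (median 11.63) in mp53 cells against 8.50 to 9.16 (median 8.81) in bleo/Neo cells, a difference of 2.80 ± 0.10, and its membrane-bound activator Mmp14 rose by 0.43 ± 0.10. Plat, tissue plasminogen activator, fell by 0.65 ± 0.12. Relative to YAMC cells Mmp2 differed by -0.39 in mp53 cells and by -3.19 in bleo/Neo cells. Of 14 integrin subunits 3 rose and 2 fell, near the shares over all genes. There were 5 higher and 3 lower without arrays 8 and 10, and 5 higher with the replicate number as a block. Itga1, a collagen-binding subunit, rose by 1.16 ± 0.27, and Itga6, which binds laminin, fell by 0.53 ± 0.15.

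Genes of epithelial structure were called in both directions, with no direction shared by all the lists. Over all genes 16.5% were called higher and 18.9% lower. Of 13 keratins tested 3 were higher and 4 lower. Those that fell were Krt19, Krt7, Krt14 and Krt15, and Krt14, a basal keratin, measured 7.79 to 8.63 (median 8.23) in mp53 cells and 9.08 to 9.99 (median 9.46) in bleo/Neo cells, a difference of -1.27 ± 0.14. The Krt14 groups did not overlap. The keratins of simple epithelium that pair with each other went differently, with Krt18 higher by 0.37 ± 0.14, though not called without array 10, array 5 or bleo/Neo array 3 (limma adjusted p 0.0705, 0.0524 and 0.0594), and Krt8 at 0.10 ± 0.10, which was not called (limma adjusted p 0.471). Set against the parents, Krt7 stood at -0.28 in mp53 cells and 2.42 in bleo/Neo cells, and Krt19 at -0.89 and 2.21. Desmosome genes had 1 of 9 members higher and 4 lower. Ppl, periplakin, ranged from 6.61 to 7.12 (median 6.77) in mp53 cells against 8.06 to 9.48 (median 8.71) in bleo/Neo cells, a difference of -1.85 ± 0.12, and Perp was the only other fall over 2-fold. Pkp2, plakophilin, was the member that rose, by 0.47 ± 0.17, and it was not called without array 8 (limma adjusted p 0.0732).

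Tight junction genes were evenly divided, 2 higher and 2 lower of 13, near the shares of 16.5% and 18.9% over all genes. Cldn15 ranged from 7.60 to 8.30 (median 7.93) in mp53 cells against 9.79 to 11.13 (median 10.74) in bleo/Neo cells and Tjp3, a scaffold protein, fell by 1.20 ± 0.11, while Cgn, cingulin, rose by 0.58 ± 0.10. The other bright probe set of Cgn, at -0.10, was not called. Of 13 cadherins and catenins 4 rose and 1 fell. Cdh11, a mesenchymal cadherin, measured 9.37 to 11.08 (median 10.46) in mp53 cells and 8.09 to 9.13 (median 8.50) in bleo/Neo cells, a difference of 1.76 ± 0.22, and stood at -0.39 from the parents in mp53 cells and -2.15 in bleo/Neo cells. Epcam rose by 0.27 ± 0.10, a call lost with its probe sets averaged. Without array 8 the lower calls of this list were 2, and without array 10 or array 5 there were none. Epithelial and intestinal regulators had 2 of 13 members higher and 5 lower. The falls included Gata4, an endoderm factor (-0.78 ± 0.08), Grhl3 (-0.75 ± 0.17), Foxa2 (-0.72 ± 0.18) and the splicing regulator Esrp2 (-0.69 ± 0.11), and Sox9, a crypt progenitor factor, rose by 0.40 ± 0.12, with 1 higher call in all without array 5 or without bleo/Neo array 3. Of 9 factors of mesenchymal transition, Zeb1, Tcf4 and Snai1 rose by 0.78 ± 0.11, 0.55 ± 0.17 and 0.44 ± 0.11, and Snai3 and Foxc1 changed by -1.64 ± 0.13 and -0.85 ± 0.12. All of these were under 2-fold except Snai3.

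**Figure D3:**
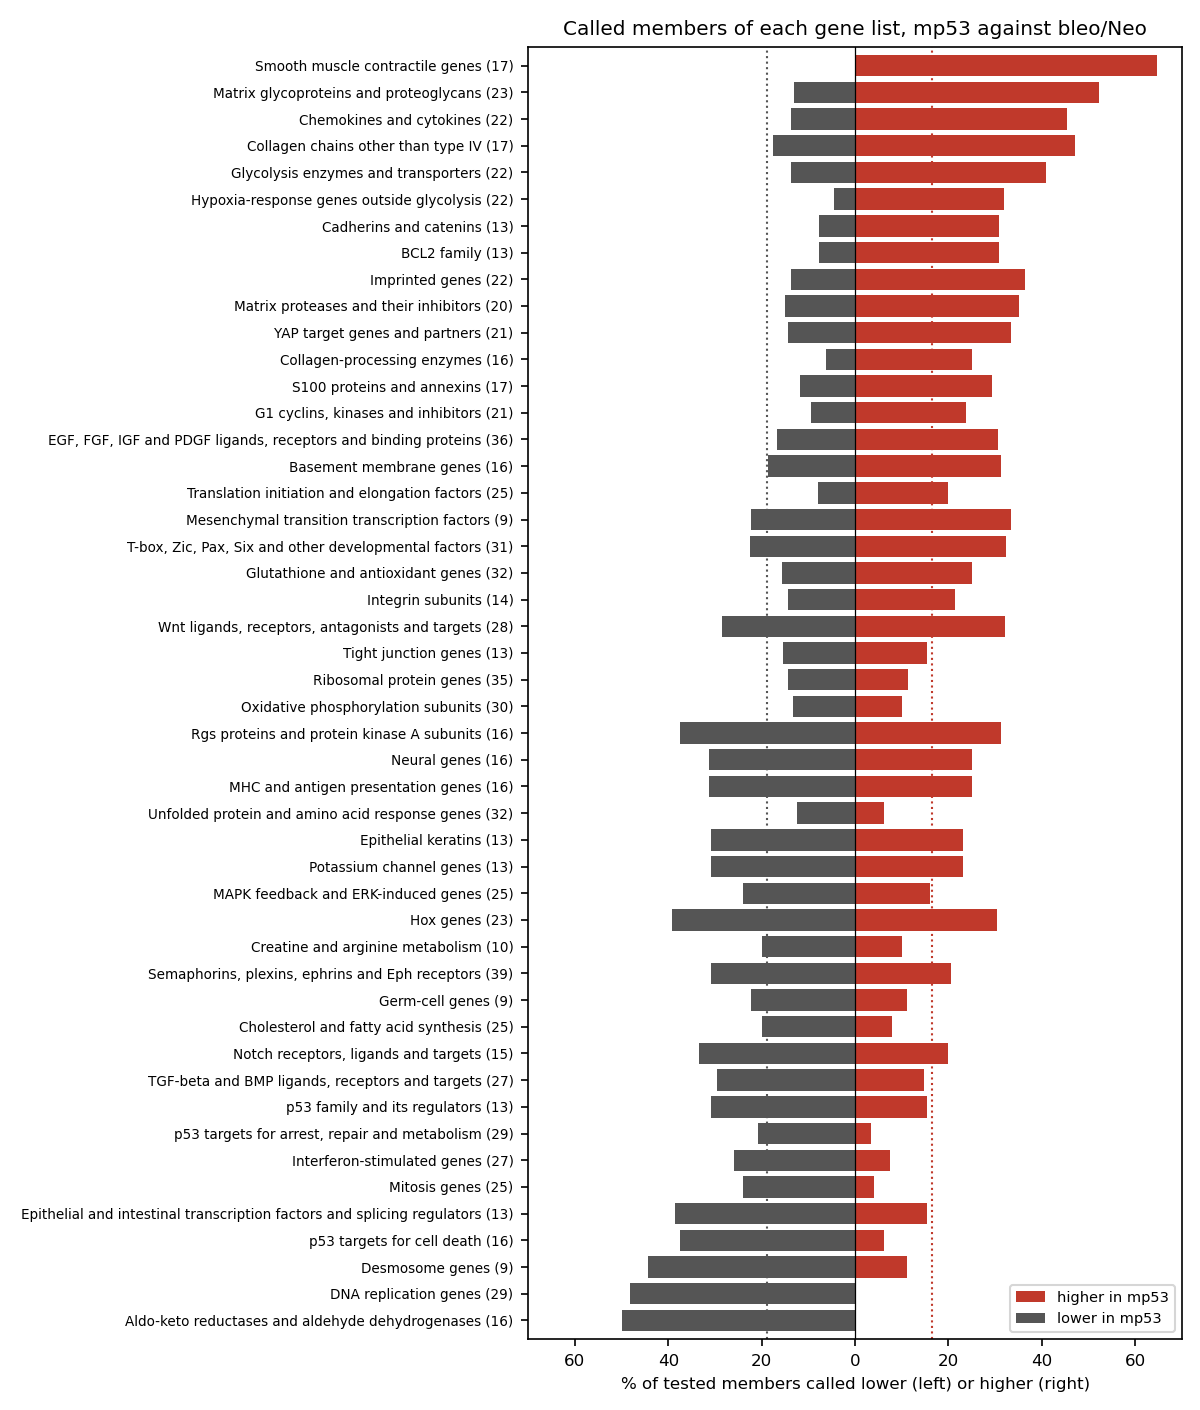
Percent of the tested members of each gene list called higher (red, right) or lower (grey, left) in mp53 against bleo/Neo cells, with the number tested in brackets and dotted lines at the shares over all tested genes, 16.5% higher and 18.9% lower. Contractile genes lie at the top with 11 of 17 higher and none lower, and aldo-keto reductases and aldehyde dehydrogenases at the bottom with 8 of 16 lower and none higher.

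Targets of p53 were counted in 2 lists. Of 29 targets for arrest, repair and metabolism 1 was called higher and 6 lower, and of 16 targets for cell death 1 was higher and 6 lower. Over all genes 18.9% were called lower and 16.5% higher, so the lower count of the first list is near that background. In the cell death list 10 were lower and 2 higher with array weights, and none was higher with probe sets averaged. Cdkn1a, the p21 inhibitor of cyclin-dependent kinases and the best known arrest target, ranged from 13.61 to 13.82 (median 13.74) in mp53 cells against 13.67 to 13.88 (median 13.78) in bleo/Neo cells, a difference of -0.05 ± 0.03 that was not called (limma adjusted p 0.24). Its level was close to the highest in the table, 14.26, where a difference may be compressed, so the value does not show that the groups were alike. Mdm2, the ligase that degrades p53, measured 12.66 to 13.37 (median 12.90) in mp53 cells and 12.56 to 13.06 (median 12.90) in bleo/Neo cells, a difference of 0.03 ± 0.07 that was not called (limma adjusted p 0.745). The groups overlapped for both of these classical targets. Falls in the first list were led by Cyfip2, an actin regulator (-1.004 ± 0.12), Tigar, a fructose bisphosphatase (-0.56 ± 0.09), and Fuca1, a lysosomal fucosidase (-0.54 ± 0.09), and Sesn1 rose by 0.25 ± 0.07. The other bright probe sets of Tigar, at -0.06 and -0.09, were not called, and neither were those of Sesn1, at 0.26 and 0.18.

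In the cell death list Pmaip1, the BH3 protein Noxa, ranged from 8.20 to 11.28 (median 9.80) in mp53 cells against 10.64 to 11.88 (median 11.22) in bleo/Neo cells, a difference of -1.40 ± 0.21 (-1.38 without arrays 8 and 10). Trp53i11 changed by -1.07 ± 0.13, the death receptor Fas by -0.71 ± 0.12, and Bid, which links death receptors to mitochondria, by -0.43 ± 0.10, while Casp6, a caspase, rose by 0.31 ± 0.11, a call lost with its probe sets averaged. Perp, described above, had the largest fall of the list. The Pmaip1 groups overlapped. Relative to YAMC cells Pmaip1 differed by -0.98 in mp53 cells and 0.42 in bleo/Neo cells, and Fas by -0.49 and 0.22. Over the 16 members, 7 were lower and none higher than in YAMC cells for mp53 cells, and 1 was lower and 5 higher for bleo/Neo cells. Of 13 family members and regulators 2 rose and 4 fell: Ppm1d, a phosphatase that dampens p53, changed by -0.49 ± 0.08, and Ppp1r13l, the inhibitor iASPP, by -0.61 ± 0.10, and 1 was called higher without array 8. The other bright probe set of Ppm1d, at -0.07, was not called. Among 13 BCL2 family genes 4 rose and 1 fell, against 16.5% and 18.9% over all genes. Bnip3, which is induced by hypoxia, rose by 1.47 ± 0.17 and Bak1, a pore-forming member, by 0.57 ± 0.14.

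Cell cycle genes differed by small amounts. DNA replication genes had 14 of 29 members called lower and none higher, against 18.9% lower and 16.5% higher over all genes. Their median difference was -0.18, and 15 were lower without arrays 8 and 10. Tk1, thymidine kinase, ranged from 10.17 to 10.98 (median 10.67) in mp53 cells against 10.84 to 11.61 (median 11.18) in bleo/Neo cells, a difference of -0.60 ± 0.13. Gins1, a helicase subunit, changed by -0.59 ± 0.08, Cdc6, which loads the helicase, by -0.54 ± 0.12, and Rrm2, a ribonucleotide reductase subunit, by -0.44 ± 0.08. All 14 falls were under 2-fold. No member's groups were free of overlap, a state that over all genes held for 2.48% on the higher and 2.04% on the lower side. Relative to YAMC cells, 1 member was higher and 4 lower in mp53 cells, against 12 higher and none lower in bleo/Neo cells. Mitosis genes had 1 of 25 members higher and 6 lower, among them Ccnb2, a B-type cyclin (-0.50 ± 0.12), and Aurkb, a spindle kinase (-0.44 ± 0.08). Without arrays 8 and 10 the count was 9 lower and none higher, and none was higher without array 10 or bleo/Neo array 3 alone. Of 21 genes of G1 phase 5 rose, including the inhibitors Cdkn1c (0.93 ± 0.10), Cdkn2b (0.74 ± 0.08) and Cdkn1b (0.46 ± 0.12) and the cyclin Ccnd1 (0.43 ± 0.10), and 2 fell, among them Rb1, the retinoblastoma gene (-0.39 ± 0.09). The lower calls were 4 without array 8 and 1 without array 10 or bleo/Neo array 3.

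Of 36 growth factor ligands, receptors and binding proteins 11 rose and 6 fell, against 16.5% and 18.9% over all genes. Igf1, a ligand, measured 9.26 to 10.22 (median 9.92) in mp53 cells and 6.92 to 7.50 (median 7.20) in bleo/Neo cells, a difference of 2.64 ± 0.16. Igf2, the imprinted fetal ligand, ranged from 7.03 to 9.95 (median 9.55) in mp53 cells against 7.48 to 8.06 (median 7.66) in bleo/Neo cells, a difference of 1.39 ± 0.31. Its 2 low mp53 arrays were 8 and 10, at 7.03 and 7.10, below the bleo/Neo range, and the other mp53 arrays all lay above the bleo/Neo range, with a difference of 1.90. Igf2r, which clears that ligand, rose by 1.02 ± 0.12 and the binding proteins Igfbp2 and Igfbp4 by 1.82 ± 0.42 and 1.09 ± 0.24. The binding proteins Igfbp6 and Igfbp7 rose by 0.44 ± 0.15 and 0.72 ± 0.13, whereas Igf1r, the main receptor, at 0.22 ± 0.14, Igfbp3 at -0.30 ± 0.24 and Igfbp5 at -0.31 ± 0.23 were not called. Other bright probe sets of Igf1r gave 0.36, which was called, and 0.12, 0.17 and -0.19, which were not. Igf1r was called with array weights (limma adjusted p 0.0415), and Igfbp5 in the fit of the 20 arrays alone (limma adjusted p 0.0342). The falls were led by Fgf13 (-1.97 ± 0.15) and the EGF receptor ligands Ereg and Btc (-1.49 ± 0.22 and -1.21 ± 0.15), which in mp53 cells stood at -0.35 and 0.12 from the parents, and in bleo/Neo cells at 1.14 and 1.33. Feedback genes of the MAPK pathway had 4 of 25 members higher and 6 lower, not far from the shares over all genes. There were 4 higher and 10 lower without arrays 8 and 10, with 10 lower also without array 10 alone. The phosphatase Dusp4, which switches off MAP kinases, changed by -0.93 ± 0.22, and the ERK-induced factor Etv4 by -0.64 ± 0.17, while Ier3 rose by 0.96 ± 0.12.

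Wnt pathway genes moved in both directions, 9 higher and 8 lower of 28, against 16.5% and 18.9% over all genes. The ligands that fell were Wnt11, Wnt4 and Wnt10a, and Wnt11 ranged from 7.37 to 9.65 (median 8.99) in mp53 cells against 9.87 to 11.25 (median 10.81) in bleo/Neo cells, a difference of -1.83 ± 0.16. Wnt4 changed by -1.35 ± 0.19 and Wnt10a by -1.28 ± 0.12, whereas Wnt5a, a noncanonical ligand, rose by 0.88 ± 0.13. Rspo3, which amplifies Wnt signals, and the receptor Fzd7 rose by 1.39 ± 0.26 and 1.29 ± 0.13, and Sfrp2, a secreted antagonist, by 1.36 ± 0.37. The Wnt11 groups did not overlap. From the parental level Wnt11 stood at -0.23 in mp53 cells and 1.61 in bleo/Neo cells, Wnt4 at 0.03 and 1.38, and Wnt10a at 0.24 and 1.52. TGF-beta and BMP genes had 4 of 27 members higher and 8 lower. The antagonists Chrd and Fst, which trap BMPs and activins, changed by -1.59 ± 0.08 and -1.51 ± 0.15, the activin subunit Inhba by -0.70 ± 0.11 and the target Id2 by -0.71 ± 0.25, which was not called without arrays 5, 8 and 10 (limma adjusted p 0.107), while the ligand Bmp6 rose by 0.998 ± 0.12.

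Of 15 Notch pathway genes 3 rose and 5 fell, against 16.5% and 18.9% over all genes. The ligands Jag1 and Jag2 changed by -0.83 ± 0.11 and -0.65 ± 0.14. The receptor Notch2 rose by 0.48 ± 0.11, though its other bright probe set was called the opposite way, at -0.33. Other bright probe sets of Jag1 gave -0.75, which was called, and 0.04, which was not. YAP targets and partners had 7 of 21 members higher and 3 lower. Ccn2, a matricellular protein and standard YAP target, ranged from 12.74 to 13.38 (median 12.97) in mp53 cells against 10.55 to 11.77 (median 11.44) in bleo/Neo cells, a difference of 1.80 ± 0.11, and F3, tissue factor, rose by 1.23 ± 0.20. The Ccn2 groups did not overlap. Yap1 itself rose by 0.34 ± 0.08 and the inhibitory kinase gene Lats2 fell by 0.40 ± 0.12. The other bright probe sets of Lats2, at -0.24 and -0.02, were not called. Semaphorin, plexin, ephrin and Eph genes had 8 of 39 members higher and 12 lower. The receptor Epha7 measured 7.01 to 8.24 (median 7.48) in mp53 cells and 8.23 to 9.51 (median 9.31) in bleo/Neo cells, a difference of -1.67 ± 0.20, and Sema4f, Sema6d and Epha4 changed by -1.36 ± 0.12, -1.20 ± 0.14 and -0.91 ± 0.18. The Epha7 groups overlapped. Nrp2, a semaphorin coreceptor, rose by 0.75 ± 0.16, and without array 5 the higher calls of this list were 5. Among Rgs proteins and protein kinase A subunits, 5 of 16 rose and 6 fell, with Prkar2b, a regulatory subunit, at 2.91 ± 0.19 and between 0.28 and 3.38 over its bright probe sets.

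Homeobox and other developmental factors showed large single changes in both directions. Of 23 Hox genes 7 rose and 9 fell, against 16.5% and 18.9% over all genes. Hoxa11 measured 8.54 to 9.50 (median 9.12) in mp53 cells and 5.34 to 7.21 (median 5.60) in bleo/Neo cells, a difference of 3.32 ± 0.13, and its neighbour in the cluster Hoxa10 rose by 0.57 ± 0.13, a call lost with its probe sets averaged. Hoxd10 ranged from 5.18 to 8.64 (median 5.61) in mp53 cells against 8.24 to 9.11 (median 8.63) in bleo/Neo cells, a difference of -2.50 ± 0.28, and Hoxc10 fell by 1.91 ± 0.16. The Hoxd10 groups overlapped. Hoxa11 was at the parental level in mp53 cells, at 0.02, and at -3.30 in bleo/Neo cells, while Hoxd10 was at -2.03 in mp53 cells and 0.47 in bleo/Neo cells. Among 31 other developmental factors 10 rose and 7 fell. Tbx20, a cardiac T-box factor, measured 7.73 to 10.08 (median 8.31) in mp53 cells and 4.68 to 6.44 (median 5.46) in bleo/Neo cells, a difference of 2.97 ± 0.22, and Gata3, Meis1 and Foxf1, a factor of gut mesenchyme, rose by 1.33 ± 0.18, 1.33 ± 0.15 and 1.25 ± 0.10. The other bright probe set of Meis1 differed by -0.04, so its rise was seen by 1 of 2 probe sets. Nr2f1 and Wt1 changed by -0.77 ± 0.19 and -0.77 ± 0.10.

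Imprinted genes had 8 of 22 members higher and 3 lower, against 16.5% and 18.9% over all genes. Beside Plagl1, Igf2, Igf2r and Cdkn1c, the growth inhibitor Grb10 rose by 0.74 ± 0.11. Without array 5 the lower calls were 1. All 3 tested Y-linked genes were higher. Eif2s3y, a subunit of a translation initiation factor, measured 8.41 to 9.50 (median 8.94) in mp53 cells and 3.46 to 3.92 (median 3.75) in bleo/Neo cells, a difference of 5.23 ± 0.17, and the histone demethylase genes Kdm5d and Uty differed by 3.76 ± 0.19 and 3.74 ± 0.19. All 3 were near the floor in bleo/Neo cells. Their mean in YAMC cells was within 1 unit of that of mp53 cells, with 0.58, 0.62 and 0.34 for mp53 cells and -4.65, -3.14 and -3.40 for bleo/Neo cells. Xist, the RNA that silences an X chromosome in female cells, ranged from 6.64 to 8.98 (median 6.99) in mp53 cells against 8.68 to 10.73 (median 9.52) in bleo/Neo cells, a difference of -2.36 ± 0.25. Its groups overlapped. The X-linked partners Eif2s3x, Kdm5c and Kdm6a changed by -0.28 ± 0.07, -0.50 ± 0.09 and -0.58 ± 0.12. Other bright probe sets of Kdm6a gave -0.82, which was called, and -0.05, which was not.

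Chemokines and cytokines had 10 of 22 members higher and 3 lower, against 16.5% and 18.9% over all genes. Cxcl12, which attracts cells bearing CXCR4, ranged from 9.33 to 12.64 (median 11.31) in mp53 cells against 6.81 to 8.87 (median 7.39) in bleo/Neo cells, a difference of 3.51 ± 0.29, but its 3 bright probe sets ran from -0.22 to 3.99. Cxcl14 rose by 1.89 ± 0.15, the epithelial cytokine Tslp by 1.21 ± 0.14, Cxcl10 by 1.14 ± 0.20 and Il6 by 0.92 ± 0.17, and Il18 fell by 0.73 ± 0.10. Interferon-stimulated genes had 2 of 27 members higher and 7 lower, 1 higher and 10 lower without arrays 8 and 10, and 1 higher without array 10 or bleo/Neo array 3 alone. Ifit2 changed by -0.63 ± 0.10 and Igtp by -0.58 ± 0.11, and Gbp2, an interferon-induced GTPase, rose by 0.97 ± 0.15. Of 16 genes of antigen presentation 4 rose and 5 fell. H2-Aa, a class II chain, measured 6.75 to 9.36 (median 8.73) in mp53 cells and 5.15 to 5.55 (median 5.34) in bleo/Neo cells, a difference of 3.31 ± 0.27, and H2-Ab1, its partner, rose by 0.99 ± 0.11. The immunoproteasome subunit Psmb9 and the class I regulator Nlrc5 changed by -0.83 ± 0.11 and -0.84 ± 0.11. H2-D1, a class I gene, had 8 bright probe sets with differences from -0.85 to 4.52, so it has no single direction here.

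Enzymes of glycolysis and its transporters had 9 of 22 members higher and 3 lower, against 16.5% and 18.9% over all genes. Slc2a3, a high-affinity glucose transporter, ranged from 6.67 to 8.74 (median 7.73) in mp53 cells against 4.68 to 5.23 (median 4.94) in bleo/Neo cells, a difference of 2.83 ± 0.21 from a bleo/Neo mean near the floor, and Eno3, an enolase of muscle, rose by 1.74 ± 0.14. The falls were Slc16a3, which exports lactate (-1.28 ± 0.18) and Ldhb (-1.14 ± 0.17), and Eno2, an enolase of neurons (-0.55 ± 0.20), which was not called without arrays 8 and 10 (limma adjusted p 0.0536) or without array 8, array 5 or bleo/Neo array 3 alone (0.0582, 0.0553 and 0.0585). Without arrays 8 and 10 the counts were 6 higher and 2 lower. Hypoxia-response genes outside glycolysis had 7 of 22 members higher and 1 lower, among them Ndrg1 (1.08 ± 0.25) and Vegfa (0.58 ± 0.13), with 6 higher and 2 lower without arrays 8 and 10, and 2 lower without array 10 alone. The other bright probe set of Vegfa, at 0.07, was not called. Against YAMC cells these 22 genes had 1 higher and 2 lower in mp53 cells and 1 higher and 7 lower in bleo/Neo cells. Aldo-keto reductases and aldehyde dehydrogenases had 8 of 16 members lower and none higher. Akr1c14, a hydroxysteroid dehydrogenase, ranged from 4.55 to 5.66 (median 5.07) in mp53 cells against 6.90 to 8.92 (median 8.11) in bleo/Neo cells, and Aldh1a2, which makes retinoic acid, fell by 0.82 ± 0.21. Relative to the parents Akr1c14 stood at 0.63 in mp53 cells and 3.49 in bleo/Neo cells.

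Glutathione and antioxidant genes had 8 of 32 members higher and 5 lower, against 16.5% and 18.9% over all genes. The glutathione transferases Gstt1, Gstp1 and Gstm1 rose by 1.72 ± 0.17, 1.68 ± 0.05 and 1.68 ± 0.15, whereas Gsta4 changed by -1.04 ± 0.14 and the secreted peroxidase Gpx3 by -1.08 ± 0.12. Of 25 genes of cholesterol and fatty acid synthesis 2 rose and 5 fell, and without arrays 8 and 10 1 rose and 8 fell. Scd1, stearoyl-CoA desaturase, measured 8.92 to 10.87 (median 9.35) in mp53 cells and 6.39 to 7.45 (median 7.07) in bleo/Neo cells, a difference of 2.58 ± 0.19, and the sterol enzymes Nsdhl, Dhcr7 and Mvk changed by -0.65 ± 0.14, -0.59 ± 0.09 and -0.47 ± 0.09, while Scd1 was the only rise without array 10, array 5 or bleo/Neo array 3. The Scd1 groups did not overlap. Oxidative phosphorylation subunits had 3 of 30 members higher and 4 lower, none past 2-fold. Among 35 ribosomal protein genes 4 rose and 5 fell, and apart from Rps4l none was past 2-fold, with 3 lower without array 8, 2 higher and 3 lower in a fit of the 20 arrays alone, and 15 higher with array weights. Among 25 translation factors 5 rose and 2 fell, with Eif3a, an initiation factor subunit, at 0.72 ± 0.12 after Eif2s3y. Other bright probe sets of Eif3a gave 0.48, which was called, and 0.01 and -0.08, which were not. Unfolded protein and amino acid response genes had 2 of 32 members higher and 4 lower, with Slc7a11, the cystine transporter, at 0.84 ± 0.23 and Sdf2l1 at -0.84 ± 0.16, with 1 higher without array 5 or bleo/Neo array 3 and 7 lower without bleo/Neo array 1. The median differences of these last 4 lists were between -0.06 and 0.04.

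Neural genes had 4 of 16 members higher and 5 lower, against 16.5% and 18.9% over all genes. Gpm6a, Stmn4 and Uchl1, a ubiquitin hydrolase (-1.68 ± 0.18), fell, and Dpysl3, which acts in axon growth, ranged from 10.78 to 11.71 (median 11.005) in mp53 cells against 8.08 to 9.64 (median 9.04) in bleo/Neo cells, a difference of 2.07 ± 0.15. The Dpysl3 groups did not overlap. Potassium channel genes had 3 of 13 members higher and 4 lower. Kcnk2, a relative of Kcnk1, rose by 1.44 ± 0.19 while Kcnk1 fell, and Kcnab2, a beta subunit, fell by 1.18 ± 0.10. Ddx4, a helicase of germ cells, ranged from 4.37 to 10.05 (median 5.20) in mp53 cells against 7.88 to 10.29 (median 8.90) in bleo/Neo cells, a difference of -3.34 ± 0.48. Array 10 was the only mp53 array inside the bleo/Neo range of Ddx4, at 10.05, and without arrays 8 and 10 the difference was -3.89. S100 proteins and annexins had 5 of 17 members higher and 2 lower, led by S100a4, a calcium-binding protein of motile cells (1.77 ± 0.25), and Anxa6 (1.21 ± 0.14).

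Arrays 8 and 10 changed the size of some differences, though never the direction of a call made both ways. Hmga2, an architectural chromatin factor of embryonic tissue, ranged from 8.03 to 12.42 (median 8.75) in mp53 cells against 7.26 to 8.11 (median 7.44) in bleo/Neo cells, with array 10 at 12.42 and array 8 at 9.84. The Hmga2 groups overlapped. Its difference was 1.54 ± 0.37 with all arrays and 1.02 without them. Icam1, a leukocyte adhesion molecule, measured 5.92 to 10.11 (median 6.29) in mp53 cells and 7.54 to 9.09 (median 8.05) in bleo/Neo cells, with array 8 at 10.11, and fell by 1.26 ± 0.36 with all arrays and by 1.89 without arrays 8 and 10. For Hmga2 array 10 thus lay above its group on the side away from bleo/Neo cells, and for Icam1 array 8 lay above the whole bleo/Neo range. Sash1, a scaffold protein, had array 8 at 8.53 and array 10 at 7.71 against 4.99 to 5.45 on the other mp53 arrays, and a difference of -1.15 ± 0.33, -1.71 without them. Igfbp2, Sfrp2 and Nrep were lowest on array 10, at 6.65, 6.96 and 4.71, and their differences were 1.82 ± 0.42, 1.36 ± 0.37 and 1.44 ± 0.33, against 2.41, 1.90 and 1.94 without the 2 arrays.

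**Figure D4:**
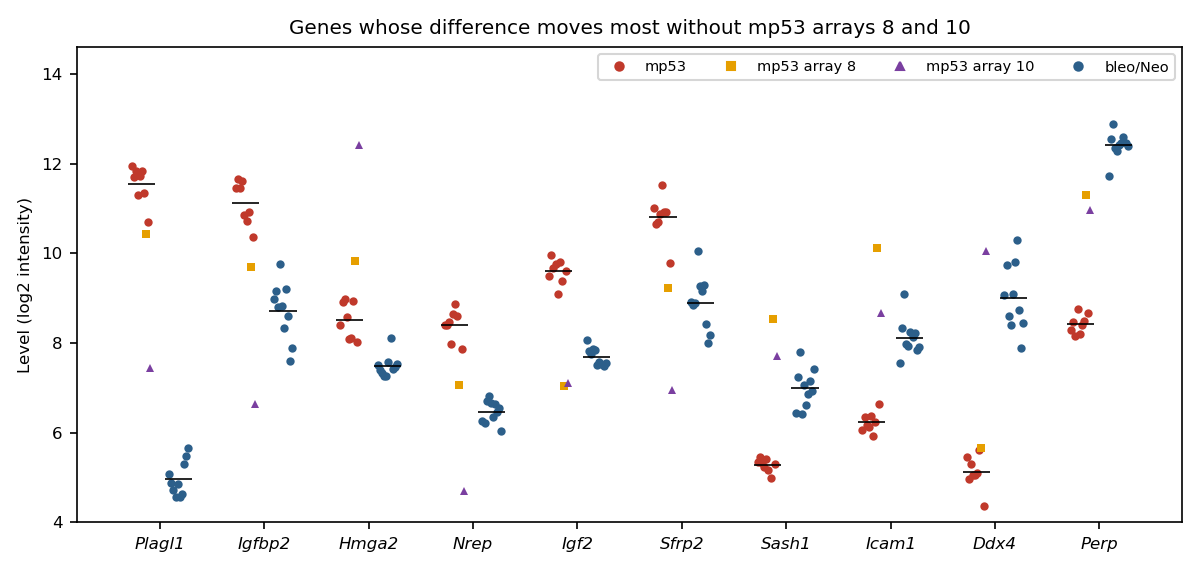
Log2 level on every array of the 10 genes, called and at least 2-fold, whose difference moved most when mp53 arrays 8 and 10 were left out. Red points are mp53 arrays, with array 8 as an orange square and array 10 as a purple triangle, blue points are bleo/Neo arrays, and black lines are means over the other 8 mp53 arrays and over the 10 bleo/Neo arrays. Array 10 is the highest mp53 array for Hmga2 and Ddx4 and the lowest for Plagl1, Igfbp2, Nrep and Sfrp2.

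Many genes are covered by several probe sets, which gives a check within each array. Of the called genes 1866 had further bright probe sets, 2880 in all, of which 1373 were called in the same direction, 109 in the opposite direction and 1398 in neither. For genes called and at least 2-fold the counts were 152 genes and 226 further probe sets, of which 197 were called the same way, 4 the opposite way and 25 neither. St3gal6, a sialyltransferase, had a small main value, 0.39 ± 0.13 at the probe set used, beside -2.89 and -2.35 at its others. H2-Q5, a class I gene, had 3.83 at the probe set used, beside -0.36 at its other. Further probe sets of genes at least 2-fold different were therefore mostly called the same way. Among all called genes, large or small, the 5 named for the widest range over their probe sets were Plagl1, Cxcl12, H2-D1, H2-Q5 and St3gal6. A wide range does not mean that 1 probe set alone was high, as Cxcl12 had 3.99 and 3.51 beside -0.22.

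The differences were not spread evenly over the genome. Over the tested genes of chromosome 3 the median difference was 0.13, with 36.5% called higher and 8.27% lower, and chromosomes 10 and 17 had medians of 0.12 each, with 33.6% and 33.0% called higher. For these 3 chromosomes the median of every mp53 array lay above that of every bleo/Neo array, on chromosome 3 at 0.085 to 0.17 in mp53 cells against -0.049 to 0.034 in bleo/Neo cells, both measured from the bleo/Neo mean. Chromosome 6 had a median of -0.10, with 9.88% called higher and 27.4% lower, and its mp53 arrays ran from -0.13 to -0.048 against -0.037 to 0.053 in bleo/Neo cells. Chromosome 2 had a median of -0.065, with 11.6% called higher and 23.1% lower. Its mp53 arrays, at -0.073 to -0.036, also lay below all bleo/Neo arrays, at -0.028 to 0.045. On the X chromosome 11.3% were called higher and 27.7% lower, but the arrays overlapped. The medians against YAMC cells were 0.01 in mp53 cells and -0.14 in bleo/Neo cells for chromosome 3, -0.01 and -0.12 for chromosome 10, -0.00 and -0.11 for chromosome 17, and 0.04 and 0.12 for chromosome 6. Array 8 departed from the other mp53 arrays on chromosomes 9 and 15, among others, at 0.099 and -0.089. Arrays 8 and 10 both lay above the other mp53 arrays on chromosome 1, at 0.12 and 0.082, and on chromosome 12, at 0.15 and 0.12. Both lay below them on chromosome 4, at -0.077 and -0.059, and on chromosome 8, at -0.13 and -0.14. What these chromosome medians rest on was not tested.

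**Figure D5:**
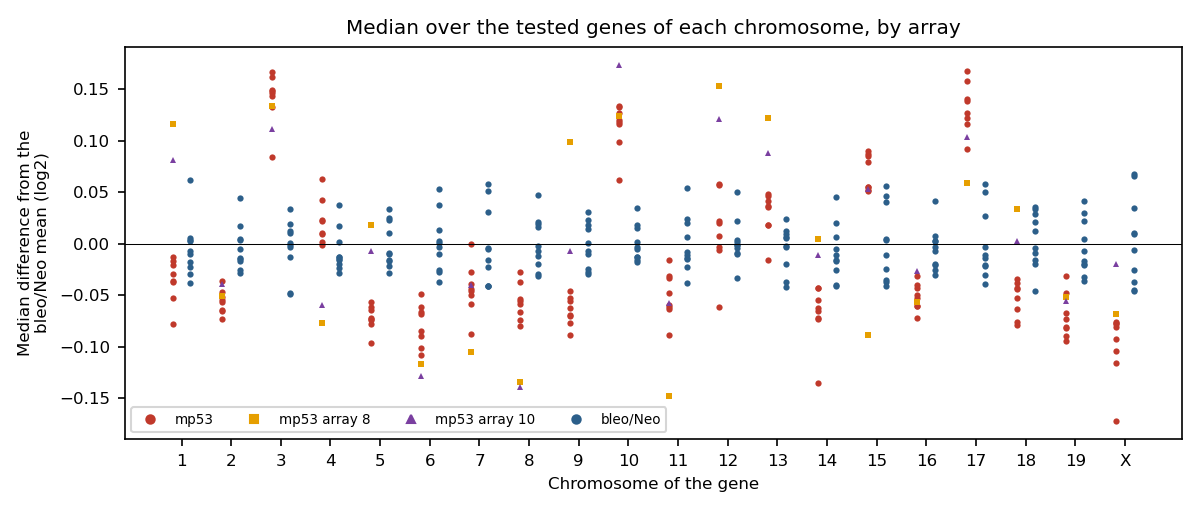
Median over the tested genes of each chromosome (x axis) of the difference of each array from the bleo/Neo mean, in log2 units (y axis). Red points are mp53 arrays, with array 8 as an orange square and array 10 as a purple triangle, and blue points are bleo/Neo arrays. On chromosomes 3, 10 and 17 all mp53 arrays lie above all bleo/Neo arrays, and on chromosomes 2 and 6 below them.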

How the data were processed

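Polysomal RNA of 50 samples was hybridised to Affymetrix mouse genome arrays, 10 for each of 5 groups, and grouped by title. The authors deposited 1 table of linear intensities, 1 per probe set and array. The submitters' processing notes name RMA; its version and the step that undid the log scale are not given in the sources used here. Of 45101 probe sets 45037 had values. Arrays have no read depth, and precision depends on how many there are.

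From the deposited intensities log2 values were computed with no offset. Of the probe sets, 34945 had exactly 1 gene symbol, 932 several and 9160 none, and the last 2 kinds were left out. For each of 18193 symbols the brightest probe set, by its mean over the arrays, was kept, and the 12883 above the table median on at least 10 of 50 arrays were tested, so 5310 were not. All 50 arrays entered 1 model in limma 3.58.1 (R 4.3.3), with a coefficient for each group and an intensity trend in the moderation. P-values were adjusted by Benjamini-Hochberg across all 12883 genes, and a gene was called at an adjusted p under 0.05. Errors of differences are standard errors of that fit. In simulated data with independent noise for each gene and array, the fit recovered most known changes of 2 units. The simulation had no outlying arrays and no correlation between genes, so it does not check calls under those conditions.

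The members and the 54 gene lists were chosen with earlier results of these data known. Genes were named by a rule: the 20 largest rises and falls without overlap, up to 4 called members of each list with up to 2 of the minority direction, reference genes, the 5 whose probe sets disagree most, and the 5 in each direction that move most without mp53 arrays 8 and 10. Other list members named were chosen after their values were seen. Alternatives tried were the arrays in the fit, arrays left out, array weights, a replicate block, the filter, the probe sets averaged, centring and no trend. Sequences come from RefSeq tables (GRCm38.p6), and no build is given for the intensity table.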

Additional observations from a re-analysis of the deposited data

Results flagged for a closer look

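In a group of 10 arrays the highest or lowest value was set beside the spread of the others, and its gap to the nearest array, as a share of the range of the group, passed Dixon's 95% critical value for 10 samples in 88 of 442 groups, or 19.9%, over the 221 named genes in both populations. For a single group picked without regard to its values, chance gives about 1 in 20. The share here is not a test against that figure. All genes share the same arrays, and some were named because arrays 8 and 10 move them most or after their values were seen. Values here are log2 levels, and the reason for each was not tested. The largest number, 37 genes, came from mp53 array 10. It was lowest of its group for Acta2 (13.45), Actg2 (7.586), Cnn1 (5.851), Col1a2 (11.87), Fzd7 (8.453), Gstt1 (7.701), H2-Aa (6.753) and Igf1r (8.33). Also lowest on this array were Igfbp2 (6.651), Itga1 (6.066), Mgll (9.887), Myl9 (9.906), Nid2 (5.624), Nrep (4.708), Plagl1 (7.45) and Postn (5.897). The remaining low values were those of Rasgrp3 (7.942), Rspo3 (5.983), Sfrp2 (6.96), Tagln (12.53) and Wnt11 (7.371). It gave the highest value for Btc (7.216), Ccnd1 (13.36), Cd68 (9.676), Ddx4 (10.05), Dusp4 (11.04), Esam (7.368), Etv4 (8.785) and Fgf13 (5.77). Also highest were Foxa2 (10.03), Hmga2 (12.42), Nrp2 (9.673), Prkar2b (9.51), S100a4 (12.51), Sema6d (7.666), Sox9 (7.934) and Xist (8.982). A further 16 came from mp53 array 8. It was lowest of its group for Casp6 (9.571), Cdkn1b (9.637), Gstm1 (8.573) and Igfbp6 (8.506). It gave the highest value for Esrp2 (8.914), Gata3 (9.316), Grhl3 (8.118), Hook1 (6.295), Igtp (12.83), Kcnk1 (8.155), Nid1 (9.719) and Rai2 (6.533). Also highest were Rb1 (11.19), Shtn1 (5.798), Snai3 (7.129) and Tcf4 (11.19). From mp53 array 5 came 5. It gave the highest value for Anxa6 (12.33), Dpysl3 (11.71), Grb10 (12.34), P4ha1 (11.26) and Snai1 (7.078). A single gene came from mp53 array 4, lowest of its group, Sesn1 (9.183). A single gene came from mp53 array 9, highest of its group, Eno2 (9.856).

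Among bleo/Neo cells array 1 had 15. It was lowest of its group for Elovl7 (6.249), Esam (8.58), Fas (9.443), Perp (11.73) and Wnt10a (6.384). It gave the highest value for Aldh1a2 (9.41), Cgn (8.083), Csgalnact1 (5.554), Cxcl14 (7.431), H2-Q5 (6.215), Hoxa11 (7.213), Kdm5d (4.347) and Nr2f1 (9.933). Also highest were Nrp2 (8.16) and Zic1 (4.099). From bleo/Neo array 3 came 8. It was lowest of its group for Eno3 (8.177), Kcnk1 (10.28) and Nsdhl (9.64). It gave the highest value for Cd68 (11.1), Grhl3 (8.784), Icam1 (9.09), Jag2 (10.12) and Kcnab2 (9.626). There were 3 from bleo/Neo array 4. It was lowest of its group for Epha7 (8.228) and Gata4 (8.125). It gave the highest value for Ier3 (10.56). A single gene came from bleo/Neo array 7, highest of its group, Hmga2 (8.114). A single gene came from bleo/Neo array 10, lowest of its group, Mvk (9.251).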

How the results depend on the processing

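Across 15 alternative settings the counts of genes called lower, and of genes called and at least 2-fold in either direction, stayed within 1.5 times those reported. Weighting the arrays by their quality gave 3222 genes called higher against 2123 and 3492 called lower against 2439, and the cause was not tested. That setting moved 30 of the 108 counts of list members called higher or lower by over 1.5 times, among them the ribosomal protein genes, with 15 higher against 4. Leaving out mp53 array 8, 10 or 5 alone gave 2097 to 2189 genes called higher, 2325 to 2517 called lower, 218 to 229 at least 2-fold higher and 197 to 214 at least 2-fold lower. The settings without mp53 array 5, without mp53 arrays 5, 8 and 10, and without bleo/Neo array 1 or 3 were chosen after seeing the data. Of 3275 values of the 221 named genes under other settings, 3246 kept their direction and their side of the threshold, 21 lost the call, 2 gained it and 6 changed sign. The gained calls were those of Igf1r with array weights and of Igfbp5 in the fit of the 20 arrays alone. Mdm2, which was not called, differed by 0.03 as reported, by 0.0405 without mp53 array 10, by -0.000734 without array 8, by -0.014 without array 5, by -0.064 without arrays 5, 8 and 10, and by -0.095 with array weights. Igfbp3, also not called, differed by 0.036 with array weights, against -0.30. H2-D1 differed by 0.98 with its probe sets averaged, against -0.41. The calls of Casp6, Ccnd1, Epcam, Hoxa10, Notch2, P4ha1 and Plod1 were lost when probe sets were averaged and that of Igfbp6 in the fit of the 20 arrays alone, and the cause was not tested.

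Replicate numbers are shared between groups, but no source says that a number marks a shared day. For that reason alone the numbers were not taken as a pairing. Same-numbered mp53 and bleo/Neo arrays did deviate together (correlation over 0.1) in 7 of 10 pairs. The correlation was highest for numbers 9 (0.667), 4 (0.546) and 7 (0.434) and lowest for number 1 (-0.001). A shared factor is therefore possible and was not tested. The block also moved list counts, to 3 lower collagen-processing enzymes, 4 lower genes of G1 phase, 5 higher integrins and 5 higher fibroblast markers. With the replicate number as a block 2376 genes were called higher and 2715 lower, with 216 and 199 at least 2-fold, and 4 of 10 mp53 and 3 of 10 bleo/Neo arrays correlated best with their own number.

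The limits are those of 1 population per group, of polysomal RNA without a matched total RNA, and of probe sets that can share signal with related genes. The table has no detection calls or scan dates, so low signal was not examined, and batches only through the replicate numbers.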

Other observations

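Of the large changes not described above, Apela, a small secreted hormone of the early embryo, ranged from 6.09 to 6.76 (median 6.53) in mp53 cells against 7.87 to 10.03 (median 8.85) in bleo/Neo cells, a difference of -2.34 ± 0.17. Rai2, named for its induction by retinoic acid, measured 4.59 to 6.53 (median 4.90) in mp53 cells and 6.61 to 8.77 (median 7.60) in bleo/Neo cells, a difference of -2.46 ± 0.21. Shtn1, which acts in the outgrowth of axons, ranged from 4.82 to 5.80 (median 4.99) in mp53 cells against 6.78 to 7.56 (median 7.26) in bleo/Neo cells, a difference of -2.20 ± 0.12. Zfp979, a zinc finger gene, measured 7.01 to 7.65 (median 7.40) in mp53 cells and 3.89 to 4.51 (median 4.12) in bleo/Neo cells, a difference of 3.23 ± 0.23. In none of the 4 genes did an mp53 array reach the range of bleo/Neo cells. The medians of Zfp979 in bleo/Neo cells and of Rai2 and Shtn1 in mp53 cells lay below the table median of 6.44. Set against YAMC cells, Apela stood at 0.20 in mp53 cells and 2.54 in bleo/Neo cells, Rai2 at -0.71 and 1.75, Shtn1 at -1.13 and 1.06, and Zfp979 at 0.76 and -2.47.

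Creatine and arginine genes had 1 of 10 members called higher and 2 lower, against 16.5% and 18.9% over all genes. Beside Ckmt1, which fell, the cytosolic creatine kinase gene Ckb rose by 0.50 ± 0.09, and Odc1, the first enzyme of polyamine synthesis, fell by 0.34 ± 0.10. The higher calls were 2 without bleo/Neo array 1. Markers of immune cells had 3 of 5 tested members lower and none higher, led by Cd68, a lysosomal protein that macrophages share with other cells (-1.30 ± 0.18), and their summed linear intensity ran from 995 to 1611 in mp53 cells and from 1265 to 2986 in bleo/Neo cells.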
